A study of Mus musculus with 47 samples.

Results

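Among the NPY-positive neurons patched in the superficial layers of the mouse auditory cortex (AC), 10 cells were divided by their reads for Ndnf, the gene of neuron-derived neurotrophic factor. Ndnf had at least 1 read in 7 cells (N44, N7, N41, N43, N5, N8 and N3X) and 0 reads in 3 cells (N4, N42 and N46), out of 47 samples in the series, 20 of them from AC. The study harvested cytosol through the patch pipette from single GABAergic cells of auditory cortex and hippocampus and sequenced poly(A) RNA of each. All 10 cells came from NPY reporter mice 3 to 8 weeks old, named NPY-EGFP in the series record and NPY-hrGFP in the study's methods, in which a fluorescent protein marks cells that use the Npy promoter. The labels name no treatment, and both sets share genotype, region and treatment. Mice of both sexes were used, and the labels tie none of the cells to any of the 8 mice. Cells that share a mouse cannot be told from cells that do not, and each set therefore counts as 1 sample. No test was made, and every difference given here is a description of these cells.

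Ndnf codes for a secreted glycoprotein. In the outer cortex it marks a large share of the neurogliaform cells of layer 1, small late-spiking interneurons that release GABA into the surrounding tissue rather than at single contacts. These cells typically also make neuropeptide Y, reelin and the membrane protein Lamp5. Most arise in the caudal ganglionic eminence (CGE), whose cells keep the homeodomain factor Prox1, while cells of the medial ganglionic eminence (MGE) keep Lhx6.

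Levels are counts scaled to the total of each cell (CPM), the reads of a gene in each 1000000 reads on genes of the same cell, and a difference is the mean of log2(CPM + 1) over the cells with Ndnf reads minus the mean over those without. Per-cell values follow the order N44, N7, N41, N43, N5, N8 and N3X for cells with Ndnf reads, and N4, N42 and N46 for those without. The total of reads on genes per cell was 1890911 to 6265431 with Ndnf reads and 1715012 to 3836285 without. The number of genes with a read was 4936 ± 1086 (SD, n = 7) with Ndnf reads and 4340.3 ± 1061 (SD, n = 3) without, so the ranges overlapped. The difference of 596 genes was 570.4 after every cell was thinned to 1715012 reads, and 7.43 when N42 was left out. Differences of means leaned one way: their median over the 8540 genes with a mean level of at least 10 CPM was 0.82, and 61.0% of these genes lay above 0. By the difference of set medians the median over genes was 0 and 33.2% lay above 0, since many levels were at 0. Genes are therefore read below against that median and against the separation between the nearest cells.

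The label held in all 10 cells. Gad1 and Gad2, the enzymes that make GABA, and Npy and Lamp5 had reads in each cell. Npy was at 1297 to 10566 CPM (median 2573, n = 7) with Ndnf reads and at 1174, 8751 and 2872 CPM without. Lamp5 was at 324 to 2802 CPM (median 1241, n = 7) with Ndnf reads and at 458, 1806 and 330.4 CPM without, and both genes overlapped between the sets. Gad2 did not overlap: it was at 1134 to 2232 CPM (median 1806, n = 7) with Ndnf reads and at 2495, 4281 and 3100.2 CPM without, a difference of -0.98 with a gap of 0.16 between the nearest cells. The Gad2 difference turned to 1.17, that of Gad1 from -0.54 to 0.82 and that of Lamp5 from 0.63 to 5.3, when 3 more AC columns described at the end were added to the cells without Ndnf reads. Gad1 overlapped, at 740.3 to 11303 CPM (median 8339.8, n = 7) against 7406, 13468 and 5667 CPM. Slc32a1, the vesicular GABA transporter, had reads in 5 of the 7 cells and in 0 of the 3, so that a gene GABAergic cells use was listed at 0 in 5 of the 10 cells. Over the 10 GABAergic genes with a mean of at least 10 CPM, 5 were higher with Ndnf reads by at least 1 and 0 were lower, beside 46.6% and 25.7% of all genes, with a median difference of 1.01 (1.03 with genes at 0 in one set placed at their bound). In these libraries 0 reads means that a gene was not detected, not that the cell lacked it.

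Ndnf itself lies at chr6:65671590-65712326, plus strand (GRCm38, GENCODE vM21). It was at 2047, 861, 567, 351, 80.9, 17.2 and 2.47 CPM in the cells with Ndnf reads, from N44 with 6748 reads to N3X with 10 reads. N3X was thus the cell just inside the rule, and the 3 cells just outside it had 0 reads, which over the 3 together allows a level of up to 0.341 CPM (3 reads). Counting limits of this kind cover sampling of reads only, since the reads carried no molecular identifiers. The sets were chosen by these values, which are therefore no result.

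Prox1, the factor that marks CGE descent (chr1:190118035-190170714, minus strand), had reads in 7 of 7 cells with Ndnf reads and in 0 of 3 without. Exact binomial 95% intervals over cells were 59.0 to 100% and 0 to 70.8%. They take each cell as independent, which the labels cannot show, and so hold for these cells as a description only. Its level was 520.0, 157, 0.229, 1.92, 139, 253 and 592 CPM, where N41 had 1 read and N43 had 6. With at least 10 reads required, 5 of the 7 cells (71.4%) had Prox1. The difference was 6.07 and the summed level was at least 734-fold higher with Ndnf reads, that is, reads over the total of the set, against 3 reads over the cells without, as for each such bound here. Exons of Prox1 overlap those of its antisense gene Prox1os, and the reads of such a pair cannot be told apart where counting ignores strand.

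Car4, a membrane-bound carbonic anhydrase (chr11:84957786-84966044, plus strand), had reads in 7 of 7 cells and in 1 of 3. It was at 590.4, 26.2, 219.6, 367, 721, 143 and 16.3 CPM with Ndnf reads and at 145, 0 and 0 CPM without, so that N4 lay inside the range of the other set. Reln, the secreted glycoprotein reelin (chr5:21884454-22344702, minus strand), was at 1570.3, 1937, 1998, 1430.4, 217, 2729.9 and 1388 CPM with Ndnf reads and at 1358, 0 and 356 CPM without. Reelin was therefore high in N4, lower in N46 and not detected in N42. Differences were 4.9 for Car4 and 4.08 for Reln, and neither gene separated the sets. The Reln difference was 0.93 without N42, where the median of all genes was 0.74, and that of Car4 3.7 without N42 or N46. Of the other carbonic anhydrases, Car11 differed by 0.92 and Car2 had reads in N4 only, at 994 CPM, while 10 of 16 had 0 reads in all 10 cells.

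**Figure D1:**
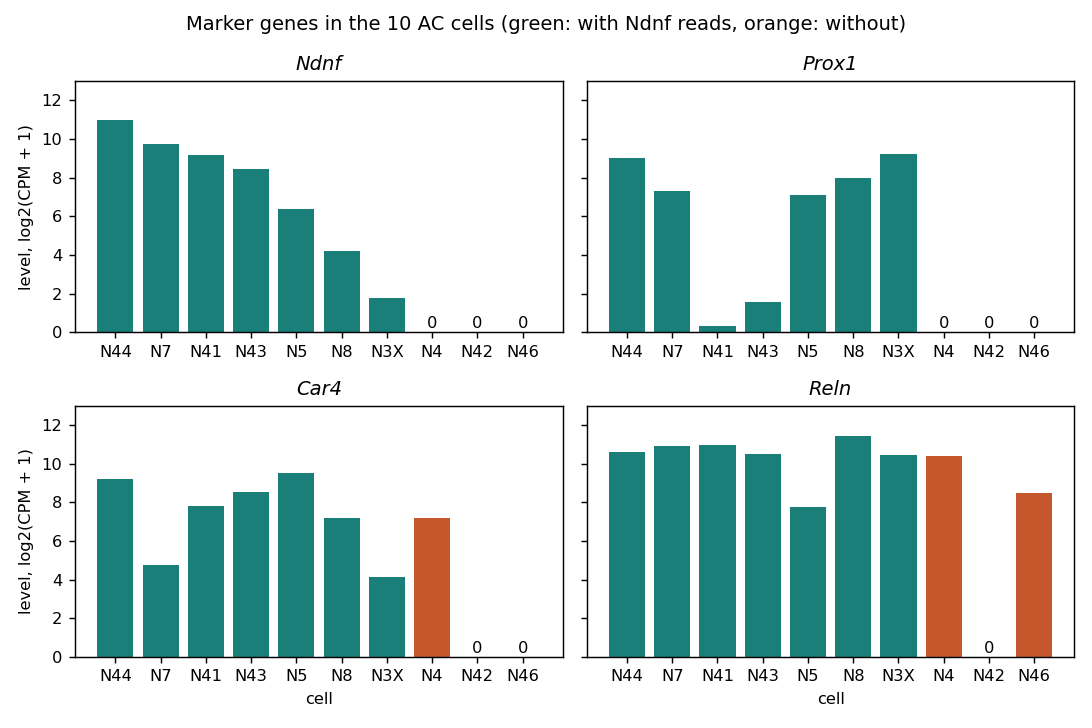
Level, as log2(CPM + 1), of Ndnf, Prox1, Car4 and Reln in each of the 10 AC cells, as 1 bar per cell with 0 written where a cell had no read. Cells with Ndnf reads stand left in falling order of Ndnf; Prox1 is at 0 in N4, N42 and N46, while Car4 and Reln have reads in N4.

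Genes were called separated where the lowest cell of one set lay above the highest cell of the other by at least 1 on the log2 scale. Of 8540 genes, 23 were separated with higher levels in cells with Ndnf reads (0.269%) and 16 with lower levels (0.187%). The balance turned with the scaling: 16 were higher and 29 lower with DESeq2 size factors, and 19 higher and 22 lower with scran size factors, where 13 of the 16 were among the 22. Any gap above 0 was seen for 40 genes higher with Ndnf reads (0.468%) and 63 lower (0.738%). The sets differed by at least 1 in mean level at 3976 genes higher (46.6%) and 2198 lower (25.7%), which with 7 against 3 cells and many values of 0 says little of a single gene. Reads in every cell of one set and in none of the other were seen for 11 of 11620 genes higher with Ndnf reads (0.0947%) and 9 lower (0.0775%); beside genes described below these were Klhl26 and Pxk, and Ifit1, Mpp5, Rgs6 and Slc16a13. A further AC column, N4X, was not among the 10 and is, by its name and values, probably a second run or copy of N4. Over 22800 genes its log2 levels had a Pearson r of 0.997 with those of N4, where the other 9 cells had 0.369 to 0.487. The same 23 and 16 genes found with N4X in place of N4 are therefore no independent support. Leaving out 1 cell at a time, so that fewer cells had to be passed, gave 28 to 61 genes higher and 17 to 86 lower. The count of genes higher was 61 without N4, 53 without N41, 42 without N42, 41 without N44, 39 without N7 and 38 without N3X or N46, and that of genes lower was 86 without N42, 74 without N46, 71 without N4, 31 without N5 and 25 without N8. Leaving out a cell can only keep or widen a gap, so that these counts do not bear on the stability of the 39 genes. Without N42, Ttl and Zfp385b left the count because their means fell to 3.32 and 7.9 CPM. Among the 67 genes named by rule that differed by at least 1 but were not separated, the difference of 47 moved by more than 1.5 times when 1 cell was left out.

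Xbp1 had the widest gap among the genes higher with Ndnf reads. It codes for a transcription factor of the unfolded protein response, the programme that matches folding capacity of the endoplasmic reticulum to secretory load (chr11:5520659-5525893, plus strand). Xbp1 was at 1039.7, 212, 793, 1194, 198, 185 and 331 CPM in the cells with Ndnf reads and had 0 reads in the others. The nearest cells were 7.54 apart and the summed level was at least 1623-fold higher. Other genes of that response were listed after the values were seen. Of 16 with a mean of at least 10 CPM, 6 were higher by at least 1 and 3 lower, near the 46.6% and 25.7% of all genes, and Xbp1 alone was separated, with a median difference of 0.21. Hspa5, the main chaperone of the endoplasmic reticulum, differed by 1.58, Ddit3 by 3.87, Atf4 by -1.12 and Atf6 by -2.94.

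Crtac1, Astn1 and Thy1 belong to the cell surface and the extracellular matrix. Crtac1, an extracellular matrix protein (chr19:42283035-42431783, minus strand), was at 163, 348, 175, 244, 413, 147 and 289 CPM against 0 reads in N4, N42 and N46, and its summed level was at least 664-fold higher. Its levels were even, with 7.90 ± 0.57 (SD, n = 7) on the log2 scale. Its exons overlap AC144792.1. Astn1, the astrotactin by which migrating neurons hold on to glia (chr1:158362273-158691781, plus strand), was at 223 to 1464 CPM (median 482, n = 7) against 1.17, 0 and 0 CPM. Astn1 rested on 2 reads in N4, and the ratio of summed levels was 2841 (95% counting interval 786 to 23464). Thy1, a surface glycoprotein of mature neurons, was at 17.5 to 119 CPM (median 46.3, n = 7) against 0.583, 0 and 3.08 CPM.

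Trim3 and Ubr3 are ubiquitin ligases and Anapc5 is a subunit of the anaphase-promoting complex, a further ubiquitin ligase. Trim3 was at 44.2 to 997 CPM (median 362, n = 7) with Ndnf reads and had 1 read in all other cells together, a ratio of 3502 (95% counting interval 628 to 138327). Ubr3 was at 32.8 to 629 CPM (median 138, n = 7) against 0 reads, at least 600.4-fold higher. Anapc5 was at 170.5 to 1237 CPM (median 404, n = 7) against 0.583, 10.2 and 0 CPM. Ppt1 and Lypla2 remove fatty acids from proteins, Ppt1 in the lysosome. Lypla2 was at 33.7 to 487 CPM (median 217, n = 7) against 1 read, a ratio of 2201 (95% counting interval 395 to 86956). Ppt1 was at 22.2 to 957 CPM (median 289.6, n = 7) against 1 read, a ratio of 4435 (95% counting interval 796 to 175179). Exons of Ppt1 and Cap1 overlap on opposite strands of chromosome 4 and both are among the 23, so that reads of one could have been counted for the other. Cap1, which turns over actin filaments, was at 5.16, 4.44, 222, 128, 1.06, 23.8 and 4.19 CPM with Ndnf reads and had 0 reads in the others.

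Slc30a9, named as a zinc transporter (chr5:67306955-67358443, plus strand), was at 35.5 to 577 CPM (median 286, n = 7) against 0 reads, at least 731-fold higher. Tspan31, a tetraspanin whose exons overlap Cdk4, was at 46.2 to 366 CPM (median 247, n = 7) against 0 reads, at least 690.3-fold higher. Abhd16a, a phospholipase that makes lysophosphatidylserine, had 0 reads without Ndnf and was at 3.64 to 702 CPM (median 134, n = 7) with it, where N44 was the low cell at 3.64 CPM. Mrpl41, a protein of the mitochondrial ribosome, was at 63 to 343 CPM (median 98.4, n = 7) against 1.75, 0 and 7.08 CPM. The remaining 11 of the 23 genes had gaps of 1.04 to 2.18 and were Thy1, Cfap36, Cacnb4, Cdk17, Rasgrf1, Npdc1, Fgf13, Nars, Nap1l5, Ubac2 and Cap1.

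Fgf13 (chrX:59062145-59568071, minus strand) belongs to the FGF family by sequence but stays in the cell and binds voltage-gated sodium channels. It was at 755, 373, 459.9, 432, 906, 481 and 807 CPM with Ndnf reads and at 0, 0 and 156 CPM without, 11.6-fold higher in mean, and N46 was the only one of the 3 cells with reads. Cacnb4, a beta subunit of voltage-gated calcium channels whose exons overlap A430018G15Rik, was at 115 to 1906 CPM (median 330.0, n = 7) against 0, 15.4 and 26.2 CPM. The other 2 beta subunits with a mean of at least 10 CPM differed by 2.05 (Cacnb2) and -3.88 (Cacnb3). Rasgrf1, an exchange factor by which calcium activates Ras, was at 785 to 2067 CPM (median 1598, n = 7) against 138, 0 and 291 CPM. Rasgrf1 thus had reads in 9 of the 10 cells and was 10.1-fold higher in mean with Ndnf reads. Nap1l5 was at 550.4 to 2554 CPM (median 914, n = 7) against 254, 0 and 0.308 CPM, so N4 also had reads of this gene. Cdk17, a cyclin-dependent kinase whose exons overlap Elk3, was at 75.1 to 698 CPM (median 383, n = 7) against 19.2, 0 and 4 CPM. Npdc1, a neural membrane protein whose exons overlap Entpd2, was at 255 to 913 CPM (median 359.6, n = 7) against 95.6, 0 and 0 CPM. Nars, which charges the transfer RNA of asparagine, was at 32.5 to 1103 CPM (median 284, n = 7) against 0, 0.261 and 13.5 CPM. Cfap36 and Ubac2 complete the group. Cfap36 was at 7.69 to 364 CPM (median 111, n = 7) against 0.583, 0 and 0.924 CPM, and Ubac2, an endoplasmic reticulum membrane protein, at 1.06 to 378 CPM (median 35.8, n = 7) against 0 reads.

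**Figure D2:**
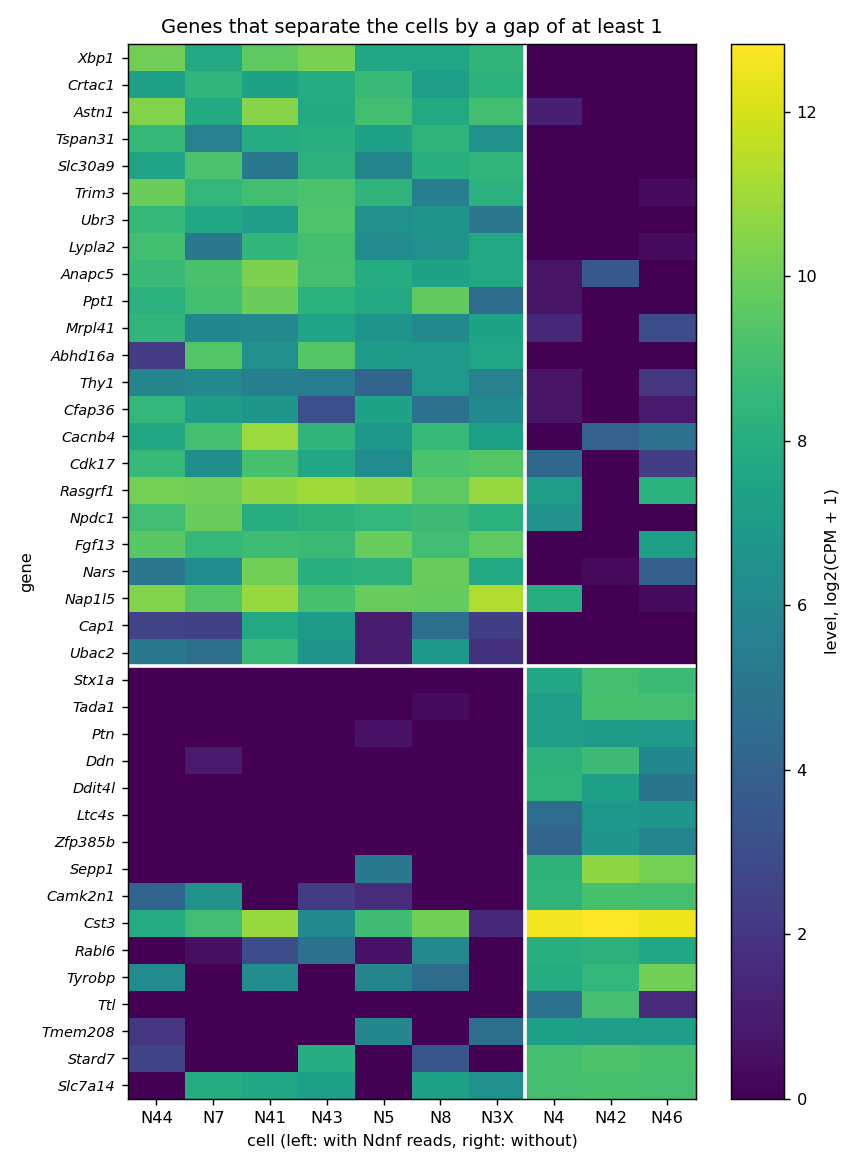
Level, as log2(CPM + 1) by colour, of the 23 genes separated with higher levels in cells with Ndnf reads (above the white line) and the 16 with lower levels (below it), with 1 row per gene in falling order of the gap and 1 column per cell. Xbp1 and Crtac1 are at 0 in N4, N42 and N46, and Stx1a is at 0 in the 7 cells with Ndnf reads.

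Stx1a had the widest gap among the genes lower with Ndnf reads. It codes for syntaxin 1A, a membrane protein of the SNARE complex that fuses synaptic vesicles (chr5:135023482-135051100, plus strand). Stx1a was at 196, 516 and 426 CPM in N4, N42 and N46 and had 0 reads in the 7 cells with Ndnf reads. The gap was 7.62, and the summed level was at least 3539-fold lower with Ndnf reads. Snap25, its partner in that complex, differed by -0.27. Of 15 genes of the release machinery, listed after the values were seen, 3 were higher by at least 1 and 4 lower, beside 46.6% and 25.7% of all genes, and Stx1a alone was separated, with a median of -0.40. Vamp1 differed by -4.58 and Cplx2 by -4.04, while Syt1, the calcium sensor of release, differed by 2.42.

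The stretches just before the starts of Xbp1 and Stx1a are shown because these genes had the widest gap in each direction, with CpG dinucleotides, the sites of promoter methylation, in capitals (RefSeq promoters, GRCm38.p6, plus strand, 250 bases each).
Xbp1, chr11:5520391-5520640: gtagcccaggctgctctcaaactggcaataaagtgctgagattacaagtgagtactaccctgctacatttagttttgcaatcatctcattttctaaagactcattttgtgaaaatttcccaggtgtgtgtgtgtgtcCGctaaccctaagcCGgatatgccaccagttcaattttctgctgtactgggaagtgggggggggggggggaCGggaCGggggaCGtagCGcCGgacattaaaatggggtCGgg
Stx1a, chr5:135023232-135023481: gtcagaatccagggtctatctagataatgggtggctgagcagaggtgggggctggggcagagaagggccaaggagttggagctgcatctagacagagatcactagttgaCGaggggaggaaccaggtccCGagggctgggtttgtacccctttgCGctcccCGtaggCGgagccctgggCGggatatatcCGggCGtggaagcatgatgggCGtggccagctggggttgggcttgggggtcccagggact
The Xbp1 stretch held 8 CpG, gathered towards the start, and that of Stx1a 9. In windows that also hold the first 50 bases of the transcript, 19 of the 23 genes higher with Ndnf reads had an entry and held 2 to 41 CpG (median 18). Of the 16 genes lower, 10 had an entry and held 6 to 31 (median 16). The median over all 32851 promoters was 7, and none was taken over the promoters of the compared genes alone. Both strands of these windows were searched for a TATA box (TATAAA), an E-box (CACGTG), a cyclic AMP element (TGACGTCA) and the endoplasmic reticulum stress element. The TATA box letters were in 2 windows of genes higher, Crtac1 and Nap1l5, and in 1 of genes lower, Ddit4l, against 13.6% of all promoters. The E-box letters were in 1, Slc7a14, against 7.15%, the cyclic AMP element in 1, Abhd16a, against 1.79%, and the stress element in 0 against 0.119%. Ndnf, Trim3, Thy1, Cdk17, Nars, Tada1, Ddn, Sepp1, Camk2n1, Tyrobp and Tmem208 had no entry.

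Ptn codes for a secreted growth factor, and Ddn and Camk2n1 for proteins of the postsynaptic side. Ptn, the heparin-binding growth factor pleiotrophin (chr6:36714929-36810220, minus strand), was at 144, 137 and 121 CPM without Ndnf reads and had 1 read in the 7 other cells, a ratio of 3347 (95% counting interval 599 to 132300.0) in favour of the cells without. Among the 21 NPY-positive CA3 cells, Ptn had reads in 8, at up to 1019 CPM. In the 14 of them with Gad1 reads, Ptn had reads in 2, at up to 138 CPM. Ddn, the postsynaptic protein dendrin, was at 305, 442 and 63.4 CPM against 2 reads in N7 only, a ratio of 3482 (95% counting interval 963 to 28765). Exons of Ddn overlap B130046B21Rik. Camk2n1, an inhibitor of the calcium/calmodulin-dependent kinase II, was at 320.1, 549.8 and 529 CPM against 0 to 91 CPM (median 2.12, n = 7). Slc7a14 was at 531, 544 and 524 CPM against 0 to 245 CPM (median 149, n = 7). Summed over 12 genes, markers of pyramidal cells were at 11.4 to 144 CPM with Ndnf reads and 108 to 1122 CPM without, which overlapped, and all 4 with a mean of at least 10 CPM were lower with Ndnf reads by at least 1, beside 25.7% of all genes. Among them Nrgn differed by -4.33 and Slc17a7, the vesicular glutamate transporter, by -2.51, while Emx1 and Neurod1 had 0 reads in all 10 cells. The part of such RNA in the genes of this paragraph was not tested.

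Tada1, Ttl, Ddit4l and Zfp385b are intracellular. Tada1, a subunit of the SAGA coactivator complex whose exons overlap Pogk and Gm15853, was at 145, 550.0 and 519 CPM against 2 reads in N8, a ratio of 5805 (95% counting interval 1606 to 47951). Ttl, the ligase that returns tyrosine to tubulin, was at 28, 526 and 1.85 CPM against 0 reads, and N42 set most of that level. Ddit4l, an inhibitor of mTOR signalling (chr3:137621612-137628333, plus strand), was at 328, 151 and 30.8 CPM against 0 reads, at least 1186-fold lower with Ndnf reads. Zfp385b, a zinc finger protein, was at 16.9, 105 and 54.2 CPM against 0 reads, at least 579.8-fold lower. Rabl6, Tmem208 and Stard7 were also lower with Ndnf reads, and each had reads in some cells of both sets. Rabl6, a small GTPase-like protein, was at 262, 297 and 199 CPM against 0 to 64 CPM (median 0.529, n = 7). Tmem208, whose exons overlap Fhod1, was at 149.9, 146 and 137 CPM against 0 to 59.2 CPM (median 0, n = 7). Stard7, which carries phosphatidylcholine to mitochondria, was at 525, 603 and 545 CPM against 0 to 244 CPM (median 0, n = 7).

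The other 4 genes lower with Ndnf reads are known for high levels in microglia or other myeloid cells, though none of them was on the marker lists. Cst3, the protease inhibitor cystatin C (chr2:148871722-148875692, minus strand), was at 6137, 7237 and 5734 CPM without Ndnf reads and at 232, 478, 1837, 70.5, 463, 1103 and 1.73 CPM with them. Its gap was 1.64 and its mean 10.7-fold lower, but its difference of -4.89 shrank to -0.21 with the 3 more AC columns, of which N47 and N51 had 0 reads. Sepp1, selenoprotein P, was at 307, 1594 and 1132 CPM without Ndnf reads and was read with Ndnf in N5 only, at 35.4 CPM. Tyrobp, the signalling adaptor of microglial receptors (chr7:30413760-30417585, plus strand), was at 242, 356 and 1075 CPM against 72.8, 0, 78.2, 0, 56.1, 21.9 and 0. Ltc4s, leukotriene C4 synthase, was at 23.3, 115 and 101 CPM against 0 reads. Exons of Ltc4s overlap Gm26542. Over the 21 NPY-positive CA3 cells, Cst3 reached 33161 CPM and Sepp1 3525 CPM. In the 14 of them with Gad1 reads, these genes reached 4690 and 478 CPM. Tyrobp reached 478 CPM in both groups of CA3 cells, and Ltc4s had no reads in either.

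Markers of glia moved with the split. The summed level of 10 microglia markers was 110.4, 0, 1015, 0, 714, 157 and 51.8 CPM with Ndnf reads and 1031, 5961 and 3598 CPM without; N41 and N4 were close. Of 9 markers with a mean of at least 10 CPM, 8 were lower with Ndnf reads by at least 1, beside 25.7% of all genes, and P2ry12 was higher by 1.08, with a list median of -4.91. Tmem119 had 0 reads in every cell. Ctss was at 195, 623 and 507 CPM in N4, N42 and N46 against at most 113 CPM, and Csf1r at 0, 2583 and 1274 CPM against at most 51.8 CPM. The sum over 10 astrocyte markers was 0.303, 59.5, 377, 81.7, 353, 33 and 176 CPM with Ndnf reads and 3252, 1010.1 and 1119 CPM without. Of 6 such markers, 4 were lower by at least 1, beside 25.7% of all genes, and the median was -2.71 (-3.88 with genes at 0 in one set placed at their bound). Aldoc was at 1805, 993 and 30.5 CPM against 119.5 CPM in N5 and 0 reads elsewhere, while Aqp4 and Gjb6 had 0 reads in all 10 cells. Oligodendrocyte and vascular sums overlapped between the sets, at 0 to 325 CPM with Ndnf reads and 0 to 367 CPM without and at 0 to 36.5 CPM with Ndnf reads and 0.308 to 1.17 CPM without. Mitochondrial genes took, of the reads of a cell, 0.252 to 0.63% with Ndnf reads and 0.934 to 1.52% without, and the 10 highest genes took 4.73 to 8.92% with Ndnf reads and 8.82 to 17.3% without. The part of glial RNA and of mitochondrial reads in the separated genes was not tested.

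**Figure D3:**
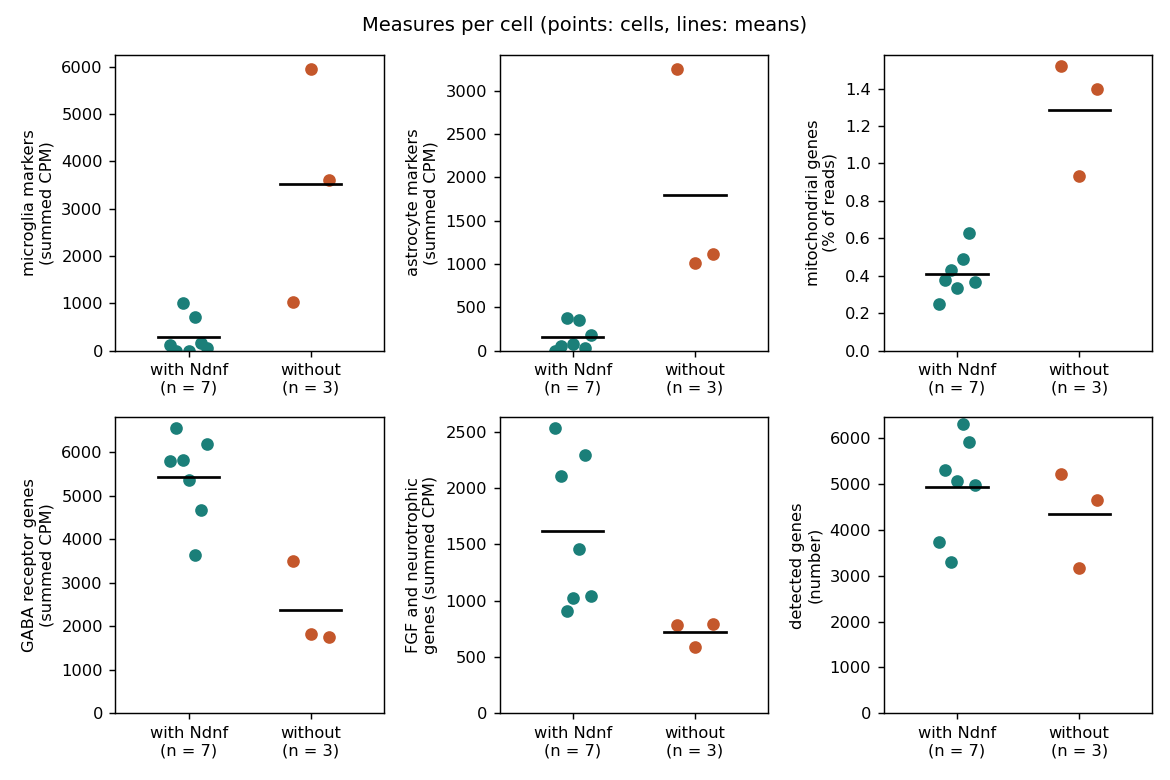
Summed levels of 4 gene lists (CPM), share of mitochondrial reads (%) and number of detected genes, with 1 point per cell, 7 with Ndnf reads and 3 without, and a line at each mean. Microglia, astrocyte and mitochondrial values lie higher without Ndnf reads with no overlap, the GABA receptor and FGF sums lie lower with no overlap, and detected genes overlap.

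Of the 3 lists of neurotransmitter receptor genes, only the GABA receptor list had summed levels that did not overlap between the sets. Its summed level was 5790.5, 6562, 5812, 5362, 3639, 4683 and 6191 CPM with Ndnf reads and 3503, 1828 and 1763 CPM without, with no overlap, though N5 and N4 were close. Of 11 genes with a mean of at least 10 CPM, 7 were higher with Ndnf reads by at least 1 and 2 were lower, beside 46.6% and 25.7% of all genes, with a median of 1.62 beside 0.82 over all genes. Gabbr2, the subunit that couples GABA-B receptors to G proteins, was at 278 to 1573 CPM (median 841, n = 7) against 928, 0 and 0.616 CPM, and N4 lay inside the range. Gabra4 was at 0 to 2356 CPM (median 491, n = 7) against 1.17, 0 and 6.77 CPM, and its exons overlap those of Gabrb1. Gabrd, the delta subunit of the tonic receptors that neurogliaform cells are known for, had reads in 3 of 7 cells and 0 of 3. Gabrb1 differed the other way, by -2.68.

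Growth factor genes lay in both directions, in shares near those of all genes. The sum over 26 FGF and neurotrophic genes was 2531, 2103, 912, 1026, 1459, 2289 and 1042 CPM with Ndnf reads and 788, 591 and 792 CPM without, without overlap. The sums overlapped once Fgf13 was taken out: without it the sum was 235 to 1809 CPM with Ndnf reads and 788, 591 and 636 CPM without. Of 10 genes with a mean of at least 10 CPM, 4 were higher by at least 1 and 3 lower, beside 46.6% and 25.7% of all genes, and the median was 0.78 (1.5 with genes at 0 in one set at their bound). Fgf13 and Ptn, described above, were the members separated in opposite directions. Fgf9, a secreted ligand, was at 0 to 369 CPM (median 216, n = 7) against 289, 0 and 0.308 CPM. Ntrk2, the receptor of brain-derived neurotrophic factor, differed by 2.45, and Bdnf had 0 reads in all 10 cells.

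Reelin binds Vldlr and Lrp8 on the receiving cell, which leads Fyn and Src to phosphorylate Dab1 and so recruits Crk, Crkl and Rap1. Of 17 genes of this route 15 had a mean of at least 10 CPM, of which 6 were higher with Ndnf reads by at least 1, 4 were lower and 0 were separated, near the 46.6% and 25.7% of all genes, with a median of 0.53. Among receptors, Vldlr was at 1079, 381, 0, 12.2, 179.8, 191 and 218 CPM against 159, 0 and 0, and Lrp8 differed by 0.77. Among the kinases and the adaptor, Fyn differed by 1.83 and Dab1 by 1.07. Dab1 was at 0, 187, 532, 474, 83.6, 116 and 189 CPM with Ndnf reads and at 319.5, 0 and 322 CPM without, and its difference was -1.71 when N42 was left out. Further downstream, Crk differed by -2.4, Crkl by 0.16 (-1.24 without N42 or N46), Rap1b by -0.33 and Rap1a by -1.25, the latter 1.35 when N46 was left out. Of the dynein partners, Pafah1b1 differed by 1.64, Pafah1b2 by 2.36 and Pafah1b3 by -1.49, the latter 0.95 without N42. Cdk5 and its activator Cdk5r1 differed by 0.06 and -1.19, and Nckap1 by 0.53. Without N42 the differences of Cdk5 and Nckap1 were -2.6 and -2.59. Lrp8 was at -0.64 without N42 or N46, and Rap1b at 1.29 without N4. Src and Rapgef1 were below 10 CPM on average. Each of the 15 genes overlapped between the sets.

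Genes of the neurogliaform class, Reln and Car4 among them, did not differ in one direction as a group. Of 17 with a mean of at least 10 CPM, 6 were higher with Ndnf reads by at least 1, 2 were lower and 0 were separated, beside 46.6% and 25.7% of all genes, with a median of 0.16 that lay under the 0.82 of all genes. Cplx3, a complexin, differed by 2.4, Cpne7 by 2.5, Kit by 0.36 and Nos1, the neuronal nitric oxide synthase, by -0.16. Hapln1, a link protein of the extracellular matrix, was at 793, 0.444, 0, 727, 861, 291 and 666 CPM against 988, 1237 and 612, a difference of -3.11 that turned to 1.8 with the 3 more AC columns. Sv2c, a vesicle protein, differed by -1.71. Of the genes by which cortical Lamp5 types are named, 8 of 12 had 0 reads in all 10 cells, and Pdlim5 was read in 3 of the 7 cells with Ndnf reads and in 0 of the 3.

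Of 7 CGE genes with a mean of at least 10 CPM, Prox1 was the only one higher by at least 1 and 3 were lower, beside 46.6% and 25.7% of all genes, with a median of -0.70. Nfia was at 299, 0 and 15.4 CPM without Ndnf reads and at no more than 0.607 CPM with them, and its exons overlap E130114P18Rik. Nr2f1 was at 176, 18 and 6.77 CPM against 0 to 157 CPM (median 7.93, n = 7), and Adarb2, an RNA-binding protein of CGE-derived cells, differed by 0.63. Lhx6, Nkx2-1 and Lhx8 of the MGE had 0 reads in all 10 cells. The 5 MGE genes with a mean of at least 10 CPM had a median of -0.47, and only Tox3 differed by at least 1, at 1.25 (-0.66 when N42 was left out), beside 46.6% and 25.7% of all genes higher and lower. Vip, Sst, Pvalb and Calb2, which mark other interneuron classes, also had 0 reads in all 10 cells, as did 14 of the 19 genes on that list.

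Glutamate receptor genes lay in both directions, in shares near those of all genes. Of 18 genes, 7 were higher with Ndnf reads by at least 1, 5 lower and 0 separated, beside 46.6% and 25.7% of all genes, with a median of 0.56. Gria3, an AMPA receptor subunit whose exons overlap Gm22413, was read in 4 of 7 cells at up to 654 CPM, against 0, 0 and 4.93 CPM. Grik1, a kainate receptor subunit, was at 0 to 1141 CPM (median 377, n = 7) against 292, 0 and 0 CPM. Neto2, an auxiliary protein of kainate receptors, was read in 5 of 7 cells and in 0 of 3. Grin2d, the NMDA receptor subunit of many interneurons, ran the other way, at 91, 106 and 118 CPM without Ndnf reads and 0 to 159 CPM (median 0, n = 7) with them. Gria1 and Gria2 differed by -1.02 and -1.18.

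Potassium channels of the A type and their partners delay the first spike, which is the late-spiking trait of neurogliaform cells. Of 20 such genes, 4 were higher with Ndnf reads by at least 1, 8 lower and 0 separated, beside 46.6% and 25.7% of all genes, with a median of -0.21 beside 0.82. The pore subunits Kcnd2 and Kcnd3 differed by 1.75 and 3.14 and Kcnd1 by -2.87, where Kcnd1 had reads in N4 only. The partner Dpp10 differed by 3.11 and Kcnip2 and Kcnip3 by -2.71 and -2.59. Kcnq3 was read at 1122 CPM in N42 and otherwise in N8 only, at 6.38 CPM.

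Immediate early genes, which neurons and other cells switch on within minutes of activity or handling, had the highest median of the lists given here with 10 or more genes. Of 16, 9 were higher with Ndnf reads by at least 1 and 1 was lower, beside 46.6% and 25.7% of all genes, with a median of 1.72 beside 0.82 over all genes (2.72 with genes at 0 in one set at their bound). Ier2 was at 223, 0, 436, 999, 376, 601 and 1688 CPM against 0 reads, at least 1984-fold higher in summed level, and N7, with 0 reads, kept it from separating the sets. Jun, whose exons overlap Junos, was at 19.4 to 3717 CPM (median 171, n = 7) against 0, 165 and 0 CPM. Dusp1, a phosphatase of MAP kinases whose exons overlap Ergic1, was at 288 to 2395 CPM (median 1245, n = 7) against 387, 719 and 0 CPM. Fos differed by 0.11 and Arc by 0.41, so that 2 widely used activity genes were close between the sets. The sum over 18 such genes overlapped, at 4864 to 22478 CPM with Ndnf reads and 2067 to 10638 CPM without.

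**Figure D4:**
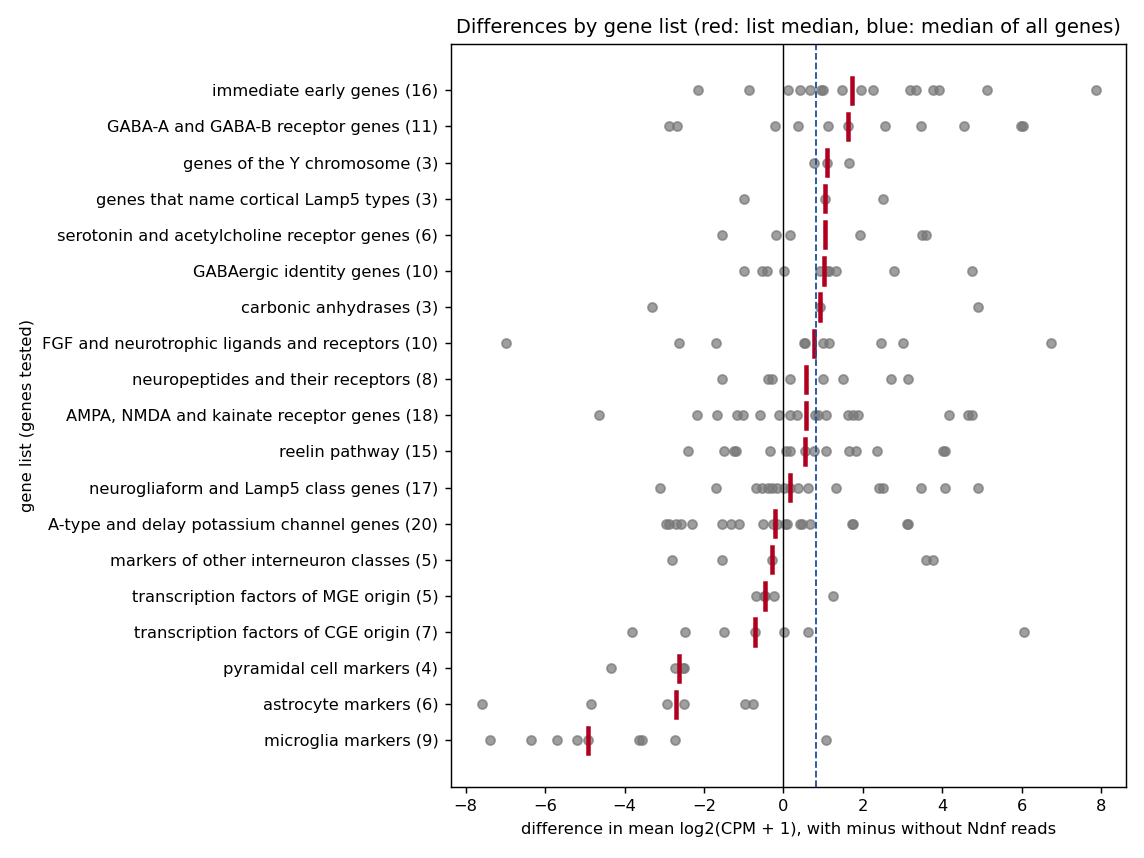
Difference in mean log2(CPM + 1), cells with Ndnf reads minus cells without, with 1 point per gene and 1 row per list, the number of genes in parentheses, a red line at each list median and a dashed blue line at the median of all genes, 0.82. Glial and pyramidal lists lie below 0, GABA receptor and immediate early genes lie highest, and neurogliaform class genes lie near 0.

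The 39 separated genes were then read in cells outside the 10. Ndnf had reads in 3 of 3 hippocampal CA1 cells, at 119.6 to 749 CPM, in 1 of 21 NPY-positive CA3 cells (N29, 671 CPM) and in 0 of the 10 other AC columns. Of these 10, 6 had fewer than 3 Gad1 reads and 5 of the 6 no Npy read, with 738 to 2367 detected genes. N4X stood for N4 again, so that 3 remain as columns with Npy and Gad1 reads and no Ndnf read. Of these 3 columns, Car4 had reads in 0 and Reln in 1. Among the 23 genes higher with Ndnf reads in AC, 16 had reads in all 3 CA1 cells and Crtac1 in none. In the 14 CA3 cells with Gad1 reads, 13 of which had no Ndnf read, the 23 genes had reads in 7 to 14 cells, with a median share of 85.7%. Xbp1 had reads in 12 and Crtac1 in 11 of these 14 cells. Reads of these genes without Ndnf were thus seen in CA3. The share of all compared genes with reads in these CA1 and CA3 cells was not taken. To be separated, the 23 genes had to have reads in all 7 cells with Ndnf reads. The 16 genes lower needed reads in only 3 cells, so that the shares of both groups cannot be set against each other.

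Among the 16 genes lower with Ndnf reads in AC, only Cst3 had reads in all 3 CA1 cells, and 4 (Ddit4l, Ltc4s, Sepp1 and Stard7) had none. Their median share in the 14 CA3 cells was 60.7%. Ltc4s had reads in 0 of these 14 cells and Ddit4l in 1. Stx1a had reads in 9 of them, at a median of 15.8 CPM.

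Beside N4X, which is left out here, a further 3 AC columns outside the 10 had both Npy and Gad1 reads, and none of them had an Ndnf read. Of the 23 genes, N45 had reads of 20, N47 of 9 and N51 of 6. N47 and N51 had 1719 and 1565 detected genes and N45 had 6209, which moves with these counts. Taken with N4, N42 and N46, they left 5 genes separated with higher levels (Astn1, Cdk17, Crtac1, Rasgrf1 and Xbp1) and 1 with lower levels (Stx1a). The difference of 17 of the 39 genes, 5 higher and 12 lower, shrank by more than 1.5 times. Xbp1 was at 63.2 CPM in N45 and had 0 reads in N47 and N51, so that its gap fell to 1.53. Rasgrf1 was at 239.5 CPM in N45 and had 0 reads in both others. Stx1a was at 135, 435 and 1858 CPM in N45, N47 and N51, and kept a gap of 7.09. Prox1 had reads in N51, at 442 CPM, so that Prox1 without Ndnf was seen in AC outside the 10 cells.

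**Figure D5:**
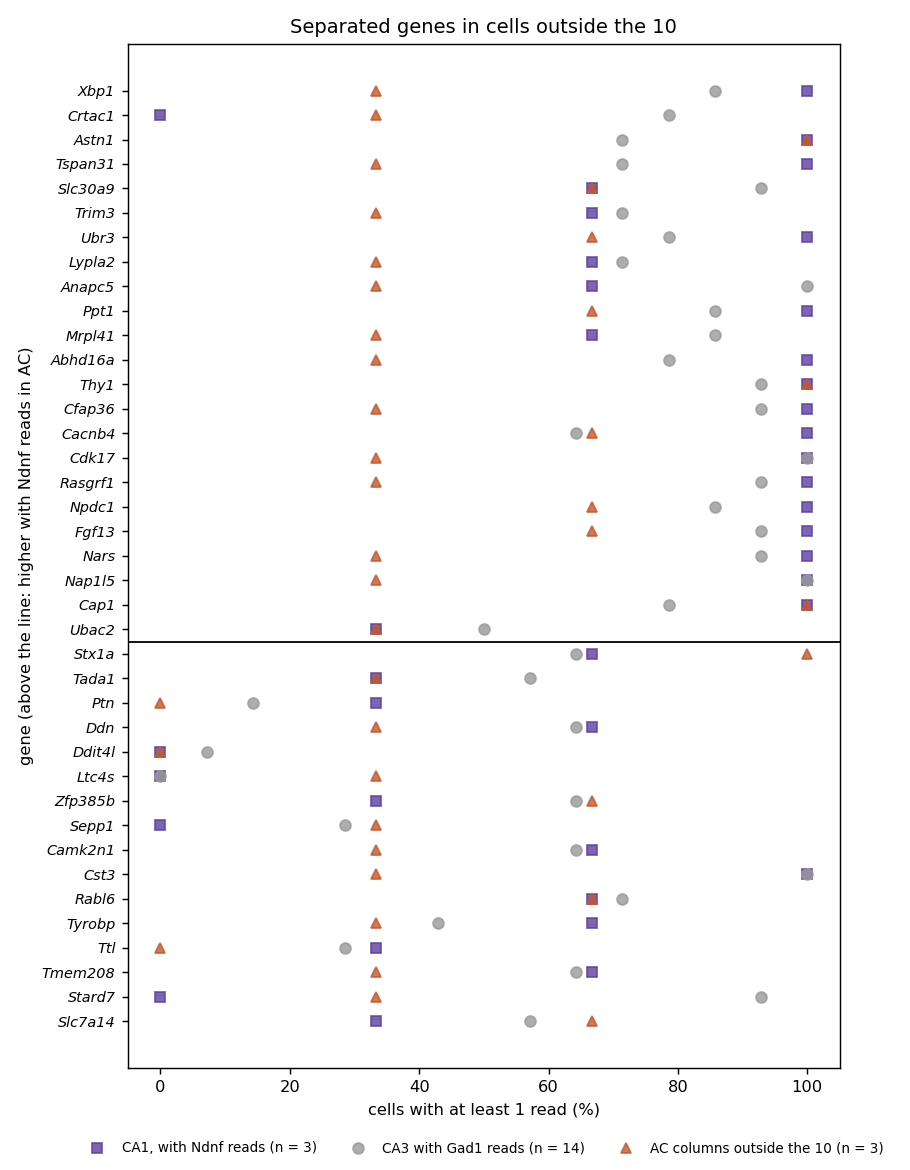
Share of cells with at least 1 read (%) for the 39 separated genes in 3 CA1 cells, 14 CA3 cells with Gad1 reads and 3 AC columns outside the 10 that had Npy and Gad1 reads (N4X left out), with 1 row per gene. Genes above the line, higher with Ndnf reads in AC, were read in 7 to 14 of the CA3 cells although 13 of these 14 had no Ndnf read.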

How the data were processed

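Each sample was the cytosol of 1 cell, made into cDNA and sequenced after a Nextera XT preparation. The deposited values are whole-number counts of reads for each gene symbol, which the authors made by aligning with STAR to an Ensembl GRCm38 transcriptome and counting by gene, with Ensembl IDs turned into symbols by release 86. Trimmomatic and featureCounts are named in the submitters' processing notes, while the study's methods name HTSeq for the counting, and these list the options for strand without saying which was used. Genes that share a symbol were averaged, per the study's methods.

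Counts of each cell were divided by its total over genes (CPM), with 1 CPM added before log2, in Python 3.11.15 with pandas 2.3.3. Genes with a mean of at least 10 CPM over the 10 cells were compared (8540 of 22800). Totals of 1715012 to 6265431 reads set the precision. Floors were 3 reads over a set and thinning used seed 1. Intervals were exact at 95%. Those of ratios of summed levels covered counting error only, while those of the Prox1 shares of cells took cells as independent. No edgeR or DESeq2 test was run, because cells are not replicates; edgeR 4.0.16, DESeq2 1.42.0 and scran 1.30.0 gave size factors for alternatives. Locations came from GENCODE vM21, which held no gene named Sepp1. The cells, the 21 gene lists and the rules were chosen with earlier results of these data known, and 3 lists (unfolded protein response, release machinery, calcium channel beta subunits) and 4 alternatives were added after the values were seen. Genes were named by rule: the 4 markers, the 12 widest gaps in each direction, separated list members, otherwise up to 4 list members with the largest difference, and the reelin list; a few genes the rule names are not reported here. Members of these lists and of the 3 added ones given with a difference alone, and the remaining separated genes, were chosen after their values were seen.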

Additional observations from a re-analysis of the deposited data

Results flagged for a closer look

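Values per cell were examined for a single cell far from the others within the 7 cells with Ndnf reads, by the gap between the end value and its neighbour as a share of the whole range (Dixon's rule on the log2 scale). Of 51 values examined, 10 had such a cell. Chance gives about 1 in 20 groups, but the counts cannot be set against each other: for Sepp1, Ddn, Ptn and Tada1, genes chosen as low in this set, 6 of the 7 cells were at 0, which fixes the outcome. The low cells were N44 for Abhd16a (3.64 CPM), N7 for Gad1 (740.3 CPM), N3X for Ppt1 (22.2 CPM), N5 for Reln (217 CPM) and N8 for Trim3 (44.2 CPM). The high cells were N5 for Sepp1 (35.4 CPM), N43 for Stard7 (244 CPM), N7 for Ddn (0.888 CPM), N5 for Ptn (0.529 CPM) and N8 for Tada1 (0.319 CPM). The last 3 rested on 2, 1 and 2 reads. Groups of 3 cells cannot be examined in this way, so the cells without Ndnf reads were not.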

How the results depend on the processing

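No test was made, so a result is a count or a difference. No paired analysis was possible because the sets were cut from 1 group by a measured value and no label pairs their cells. Of 2976 recomputed differences of 124 genes, 2878 moved by less than 1 SD between cells (the larger of both sets) and 79 by more. Beside these, 19 changed sign from a difference of at least 1. The SD was wide where a set held levels at 0, so that the 2878 are no measure of stability. For Reln it was 5.54, and the change from 4.08 to 0.93 without N42 counted as less than 1 SD. Of 67 genes that differed by at least 1 but were not separated, 47 moved by more than 1.5 times when 1 cell was left out. Among the 18 genes that differed by less than 1, 60 further values of 16 genes crossed 0 and are counted by size. The 23 genes higher and 16 lower became 21 and 14 with TMM factors, 19 and 22 with scran factors (19 and 13 of them shared with the 23 and 16) and 16 and 29 with DESeq2 factors (16 and 16 shared), which lowered the median of all genes from 0.82 to 0.46. With 3 more AC columns they were 5 and 1, with 1299 lower by size. By size, genes higher were 2539 with a pseudocount of 10 and 2192 by medians. Alternatives chosen after seeing the data gave 40 and 63 (any gap), 11 and 9 (reads in all of one set, 0 in the other) and 95 and 509 (without N42 and N46), of which fewer cells or a looser rule are the construction. Totals without microglia and astrocyte markers, also added, kept the same genes, where the markers are too small a share of a total to move one. Leaving out 1 cell gave 28 to 61 genes separated higher and 17 to 86 lower, 3745 to 4682 higher by size and 2077 to 2682 lower, and 7.43 to 1036 more detected genes.

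Among genes that differed by at least 1, signs changed by medians for Dab1 (-0.77), Erbb4 (-0.49) and Sstr2 (-0.39). With log2 of mean CPM they changed for Cck (1.84), Cdk5r1 (0.11) and Egr4 (-0.45), and with 3 more AC columns for Hapln1 (1.80) and Nr2f1 (0.26). Among the same genes, leaving out 1 cell took the difference through 0 for Chrm1 (-3.68 without N42 to 0.43 without N4), Cort (-0.43 without N4 to 2.78 without N42), Dab1 (-1.71 without N42 to 2.46 without N46), Erbb4 (-1.85 without N42 to 2.76 without N4) and Tox3 (-0.66 without N42 to 3.38 without N4). It did so between N4 and N42 for Kcnq3 (-4.65 to 0.41) and Pafah1b3 (-2.70 to 0.95), and between N4 and N46 for Calb1 (-4.23 to 0.076), Gja1 (-4.41 to 0.055), Mbp (-3.95 to 0.31) and Rap1a (-2.55 to 1.35). Among genes under 1, Cnp (1.33), Plch2 (1.82) and Zeb2 (0.95) crossed 0 without N4, Car11 (-0.23) without N42 or N46, and Tox2 (1.12) and Rap1b (1.36) with 3 more AC columns, beside those given above. The cause was not tested. Depth limits any gene at 0 reads to 0.341 CPM over the cells without Ndnf reads and 0.119 CPM over those with.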

Other observations

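Serotonin and acetylcholine receptor genes were mostly low: 8 of 21 had 0 reads in all 10 cells, and 6 had a mean of at least 10 CPM. Of these 6, 3 were higher with Ndnf reads by at least 1 and 1 was lower, near the 46.6% and 25.7% of all genes, with a median difference of 1.04 (1.83 with genes at 0 in one set placed at their bound). Chrna7, the alpha7 subunit of nicotinic receptors, had reads in 5 of 7 cells with Ndnf reads, at up to 941 CPM, and in N4 only of the others, at 78.7 CPM. Chrna4, the alpha4 subunit, had reads in 5 of 7 cells, at up to 855 CPM, and in N46 at 26.8 CPM. Htr7, a serotonin receptor, had reads in 2 of 7 cells with Ndnf reads and in 0 of the 3 without.

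Among neuropeptide genes, Cort was read in 6 of 7 cells with Ndnf reads and in 2 of 3 without, and Oprl1, the nociceptin receptor, in 3 of 7 and 0 of 3. Cnr1, the cannabinoid receptor, was read in 5 of 7 cells with Ndnf reads at up to 525 CPM and in N46 at 14.5 CPM.

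Genes of the Y chromosome had more than 1 read in N5, N7, N8 and N4.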
